A study of Bos taurus with 72 samples.

Results

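LTF, LCN2 and MMP9 are 3 genes whose products are stored in the granules of neutrophils, and they were followed in the blood of beef cattle through a feedlot stay. They were taken from the count table by their bovine Ensembl identifiers, LTF as ENSBTAG00000001292, LCN2 as ENSBTAG00000014149 and MMP9 as ENSBTAG00000020676. All 3 of the 3 genes were among the 24616 genes of the table, and all 3 passed the low-count filter that left 12655 genes for testing. Whole blood came from 24 male beef cattle (Bos taurus), each sampled at 3 stages that the labels call entry, pulled and close-out, which gave 24 libraries per stage and 72 in all. The series title names bovine respiratory disease as the subject, and in feedlots an animal is said to be pulled when it is taken out of its pen for examination. The labels record no diagnosis, treatment, age or days between samplings, and no animals outside these 24 were analysed here, so stage cannot be told apart from age and time on feed.

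Neutrophils form their granules in successive waves while they mature in the bone marrow. LTF (lactoferrin, an iron-binding antimicrobial protein) and LCN2 (lipocalin 2, which binds the siderophores that bacteria use to take up iron) belong to the specific granules, and MMP9 (a metalloproteinase that cuts gelatin and basement membrane collagen) to the gelatinase granules made later. Transcripts of specific granule proteins are known to be most abundant in marrow precursors, while LCN2 and MMP9 can also be induced by inflammatory signals in mature cells and in other cell types.

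Levels are given in CPM (counts scaled to a common library size) with scaling by TMM (the trimmed mean of M values), and differences between stages as log2 fold changes from edgeR's quasi-likelihood test, blocked by animal. A difference passed the test when its Benjamini-Hochberg adjusted p over all 12655 genes was under 0.05. Total counts per library ran from 8.24 to 29.1 M reads with a median of 17.2 M. LCN2 had 321 or more counts and MMP9 29 or more in every library. LTF was thinly covered, with a median of 28 counts and 23 of 72 libraries under 20 counts. Its lowest count, 5 in entry of animal 13, has an exact Poisson 95% interval of 1.62 to 11.7 counts, which covers counting error only.

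Some libraries stood apart before any of these genes was considered. At entry, the 6 animals with numbers above 98 in their library titles (animals 2 to 7) were separated from the 18 animals with numbers up to 98, so comparisons with entry are also given within each set. These sets were noticed in earlier results of the same data and are not groups of the study. The labels of 2 pulled libraries were doubtful. Over 100 genes chosen for stable differences between animals at entry and close-out, the other 22 pulled libraries correlated with their own animal at 0.848 or more and with any other at 0.506 or less. For the library labelled pulled of animal 9, r was -0.06 with its own animal and 0.955 with animal 11. For that of animal 12, r was 0.135 with its own animal and at most 0.305 with any other. Between pulled of animal 9 and entry of animal 11, chi-square over its degrees of freedom was 1.46, whereas the next closest of 2556 pairs of libraries had 29.1. In these 2 libraries LCN2 was at 215 CPM in pulled of animal 9 against 208 CPM in entry of animal 11. MMP9 was at 47.1 against 43.9 CPM and LTF at 0.987 against 1.26 CPM. Such closeness in 1 gene is not particular to this pair, since pulled of animal 15 had 209 CPM of LCN2. Values without both doubted libraries are given with the results they touch.

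LCN2 changed by more than LTF and MMP9 from entry to pulled and from pulled to close-out. LCN2 rose 3.45-fold from entry to pulled and fell 4.36-fold from pulled to close-out. MMP9 and LTF did not pass in any of the 3 stage comparisons over all 24 animals. Of the 3 genes, 1 passed for pulled against entry, where 42% of all genes tested passed and 20.2% were higher, and 1 for close-out against pulled (27.2% passed and 13.9% were lower). For close-out against entry 0 of 3 passed in edgeR, 0 at an unadjusted p under 0.05 and 0 in DESeq2 or limma-voom, where 22.2% of all genes passed in edgeR.

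LCN2 ran from 19.5 CPM (animal 21) to 520 CPM (animal 5) at entry, with a median of 45.8 CPM. At pulled it ran from 45.8 CPM (animal 3) to 773 CPM (animal 2), with a median of 148 CPM. At close-out the range was 15.8 CPM (animal 2) to 96.2 CPM (animal 23), with a median of 40.1 CPM. The stages overlapped, but 17 of 24 pulled libraries lay above the highest close-out value, and 12 of 24 entry libraries lay below the lowest pulled value. LCN2 was at its highest at pulled in 19 of 24 animals, at entry in 4 and at close-out in 1.

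**Figure D1:**
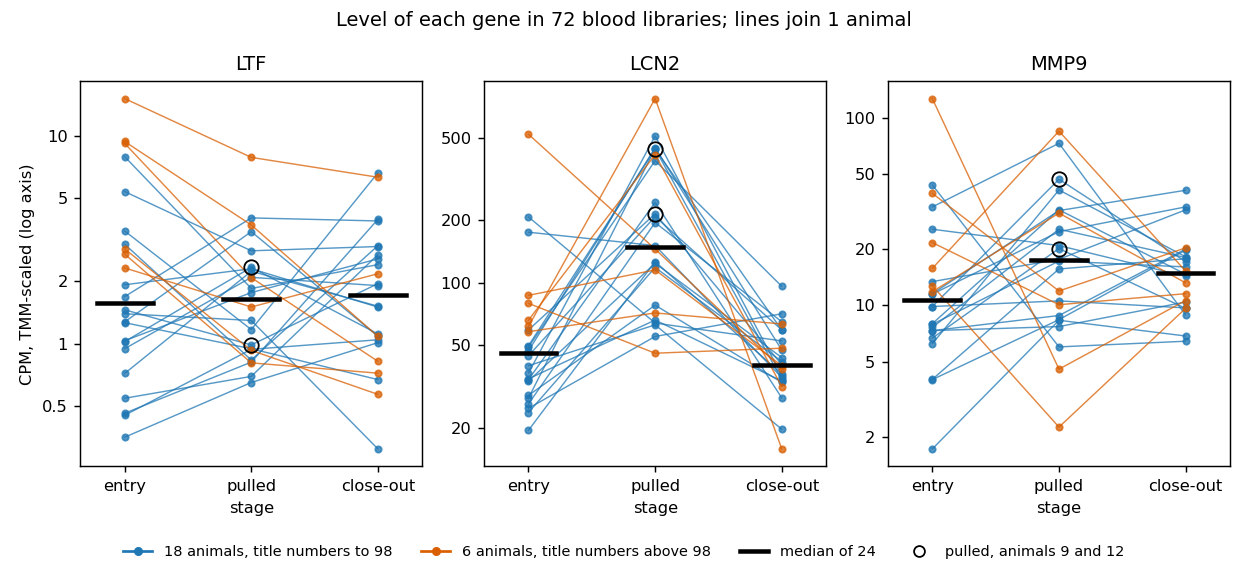
TMM-scaled CPM on a log axis for LTF, LCN2 and MMP9 at entry, pulled and close-out. Each line is 1 of 24 animals, coloured by set, bars are medians of 24 and open circles mark the doubted pulled libraries of animals 9 and 12. The LCN2 median is 148 CPM at pulled against 45.8 CPM at entry and 40.1 CPM at close-out, whereas the LTF and MMP9 lines cross in both directions.

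On the log2 CPM scale, LCN2 averaged 5.70 ± 1.10 for entry, 7.38 ± 1.19 for pulled and 5.38 ± 0.57 for close-out (SD, n = 24). The log2 fold change from entry to pulled was 1.79 (SE 0.32, 95% interval 1.15 to 2.43, edgeR adjusted p = 4.5e-05), with 20 of 24 animals higher at pulled. Its size exceeded that of 99.8% of the 12655 genes. From pulled to close-out the log2 fold change was -2.12 (SE 0.31, 95% interval -2.75 to -1.50, edgeR adjusted p = 6.82e-07), with 22 of 24 animals lower at close-out, and 99.4% of genes changed less. The 2 comparisons share the pulled libraries and are therefore not independent of each other. Without the doubted libraries of animals 9 and 12, LCN2 was higher at pulled than at entry in 18 of 22 animals and than at close-out in 20 of 22, and its log2 fold change from entry to pulled was 1.67 (edgeR adjusted p = 0.00013). Close-out against entry gave -0.34 (SE 0.30, 95% interval -0.94 to 0.27, edgeR adjusted p = 0.413), with 12 animals higher and 12 lower. In bulk blood, more neutrophils and more LCN2 RNA per neutrophil cannot be told apart, and other neutrophil and leukocyte markers were not used because the identifiers of the table are not paired with names here.

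The 4 animals that were not higher in LCN2 at pulled all lay above the entry median of 45.8 CPM. The entry level is itself part of this change. Entry LCN2 was 520 CPM in animal 5, 208 CPM in animal 11 and 175 CPM in animal 16, the 3 highest entry values, and of these animals, the second had 64.0 CPM and the third 151 CPM at pulled. The last of the 4 was animal 3, with 79.7 CPM at entry and 45.8 CPM at pulled. Animal 6 was higher than animal 3 at entry, at 87.1 CPM, and rose to 115 CPM at pulled. The largest per-animal rise from entry to pulled, 3.98 on the log2 scale, belongs to animal 12, whose pulled library is doubted. The largest fall from pulled to close-out, -5.60 on the log2 scale, was in animal 2, from 773 to 15.8 CPM.

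MMP9 varied widely between animals at every stage. At entry it ran from 1.72 CPM (animal 21) to 127 CPM (animal 5) with a median of 10.7 CPM, and at pulled from 2.25 CPM (animal 4) to 85.1 CPM (animal 2) with a median of 17.4 CPM. At close-out the range narrowed to 6.45 to 41.1 CPM, with a median of 15.0 CPM. The ranges of the 3 stages overlapped, and MMP9 was highest at pulled in 11 animals, at close-out in 7 and at entry in 6.

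MMP9 averaged 3.58 ± 1.29 log2 CPM for entry, 4.07 ± 1.25 for pulled and 3.89 ± 0.68 for close-out (SD, n = 24). Pulled against entry gave a log2 fold change of 0.54 (SE 0.34, 95% interval -0.13 to 1.22, edgeR adjusted p = 0.18), although 18 of 24 animals were higher at pulled. Animal 5 decided this call. It went from 127 CPM at entry to 4.58 CPM at pulled, and without it the log2 fold change was 0.75 (edgeR adjusted p = 0.032). Without the doubted libraries of animals 9 and 12 the log2 fold change was 0.41 (edgeR adjusted p = 0.326), with 16 of 22 animals higher. Close-out against pulled gave -0.29 (SE 0.31, 95% interval -0.92 to 0.35, edgeR adjusted p = 0.532), with 12 animals in each direction. It was -0.15 without the doubted libraries (edgeR adjusted p = 0.771). Close-out against entry gave 0.26 (SE 0.33, 95% interval -0.40 to 0.92, edgeR adjusted p = 0.579).

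LTF had nearly the same median at each stage, 1.57 CPM at entry, 1.63 CPM at pulled and 1.71 CPM at close-out. Single libraries ran from 0.355 CPM (animal 21) to 15.1 CPM (animal 3) at entry, from 0.651 to 7.88 CPM at pulled and from 0.312 to 6.64 CPM at close-out. Mean log2 CPM was 1.03 ± 1.39, 0.80 ± 0.87 and 0.85 ± 1.02 in that order (SD, n = 24). Pulled against entry gave -0.37 (SE 0.28, 95% interval -0.94 to 0.19, edgeR adjusted p = 0.276), close-out against pulled 0.15 (SE 0.28, 95% interval -0.42 to 0.73, edgeR adjusted p = 0.727) and close-out against entry -0.22 (SE 0.29, 95% interval -0.80 to 0.36, edgeR adjusted p = 0.592). In each of these comparisons 11 animals were higher and 13 lower. The interval for pulled against entry does not reach the rise measured for LCN2.

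Whether the genes changed by different amounts was tested within animals, as the difference between 2 genes in their log2 CPM change, over 9 comparisons (two-sided sign-flip permutation test, 100000 resamples). From entry to pulled, LCN2 changed by 1.91 more than LTF (SD 1.64, n = 24, 21 of 24 animals, adjusted p = 6.75e-05, permutation test). MMP9 changed by 1.20 less than LCN2, a difference of -1.20 (SD 1.06, n = 24, 21 of 24 animals, adjusted p = 6.75e-05, permutation test). From pulled to close-out, LCN2 changed by -2.05 relative to LTF, and MMP9 by 1.83 relative to LCN2, the latter in 23 of 24 animals (adjusted p = 4.5e-05 for both, from the smallest p that the permutations can give, 1e-05). From entry to close-out, MMP9 changed by 0.63 relative to LCN2 (SD 0.84, 19 of 24 animals, adjusted p = 0.00279, permutation test). MMP9 and LTF did not differ past the threshold in any stage comparison. Their closest case was entry to pulled, with a difference of 0.71 (SD 1.67, 15 of 24 animals, adjusted p = 0.0714, permutation test).

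**Figure D2:**
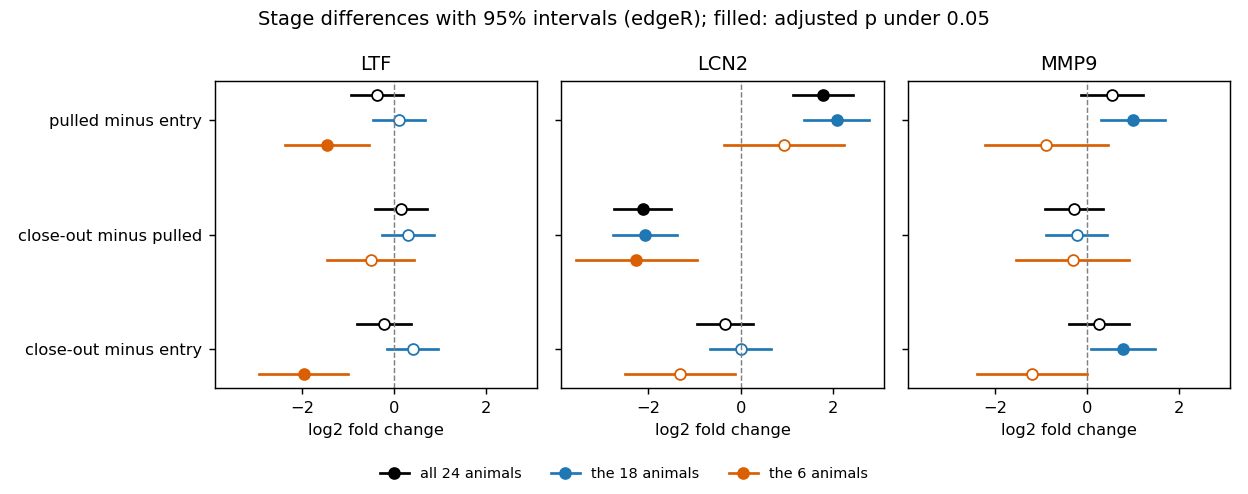
Log2 fold changes of LTF, LCN2 and MMP9 (x axis) for the 3 stage comparisons, with 95% intervals from the edgeR fits, for all 24 animals and within the sets of 18 and 6. Filled points passed the adjusted p of 0.05. LCN2 is filled for close-out minus pulled for all 24, the 18 and the 6, while LTF is filled only in the 6 animals, in both comparisons with entry.

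At entry, all 3 genes were at higher levels in the 6 animals than in the 18. This was part of a difference in which 71.8% of all genes passed and 34.4% were higher in the 6 (edgeR). The sets were chosen because their entry libraries stood apart, so the tests at entry describe them and are not independent support. Mean log2 CPM of LTF was 2.46 ± 1.14 in the 6 and 0.55 ± 1.13 in the 18, a log2 difference of 1.83 (SE 0.49, edgeR adjusted p = 0.00181). LCN2 was at 6.61 ± 1.20 against 5.39 ± 0.90, a difference of 1.43 (SE 0.47, edgeR adjusted p = 0.00909). MMP9 was at 4.67 ± 1.30 against 3.22 ± 1.09, a difference of 1.61 (SE 0.49, edgeR adjusted p = 0.00525). The sets overlapped for every gene, and 3 of the 6 lay above all 18 in LTF but 1 of the 6 in LCN2 and in MMP9, which was animal 5. Without animal 5 the differences were 0.37 for LCN2 (edgeR adjusted p = 0.454) and 0.70 for MMP9 (edgeR adjusted p = 0.197). These 2 calls were thus lost without that animal. Without animal 11, which is among the 18, the differences were 1.70 and 1.86. Median LCN2 was 72.9 CPM in the 6 and 35.6 CPM in the 18, and median MMP9 was 18.7 and 7.97 CPM. The lowest of the 6 had 58.2 CPM of LCN2 and 11.8 CPM of MMP9, each above the median of the 18. For LTF the difference stayed past the threshold without any 1 animal, at 1.45 to 2.10. The TMM factor of the entry libraries also differed, at 0.806 ± 0.0966 in the 6 and 1.14 ± 0.0876 in the 18 (SD, n = 6 and 18). With library totals in place of TMM the median of all genes moved from -0.04 to -0.52, and the differences were 1.28 for LTF, 0.85 for LCN2 (edgeR adjusted p = 0.0924) and 1.03 for MMP9 (edgeR adjusted p = 0.0536). The part of library composition in these differences was not tested further, and a library batch and a different state of the animals cannot be told apart. At pulled 0 of the 3 genes passed between the sets in edgeR, as did 0% of all genes, and 0 had an unadjusted p under 0.05. The fitted log2 differences there were 0.71, 0.23 and 0.04 for LTF, LCN2 and MMP9. For LCN2 and MMP9 the mean log2 CPM went the other way, at 7.34 ± 1.54 in the 6 and 7.40 ± 1.10 in the 18 for LCN2 and at 3.63 ± 1.86 and 4.21 ± 1.01 for MMP9 (SD, n = 6 and 18), so neither has a direction. At close-out 0 of the 3 passed, adjusted or not, against 0.0158% of all genes in edgeR, with differences of -0.21, -0.24 and -0.40. DESeq2 and limma-voom were not run within single stages.

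Within the 18 animals, LCN2 and MMP9 both rose from entry to pulled, where 70.6% of all genes passed and 33.8% rose. For LCN2 the log2 fold change was 2.08 (SE 0.35), with 16 of 18 animals higher at pulled (edgeR adjusted p = 2.17e-06). For MMP9 it was 1.00 (SE 0.34), again with 16 of 18 higher (edgeR adjusted p = 0.00891), and it was 0.70 with library totals only (edgeR adjusted p = 0.0568). LTF did not pass, at 0.10 (SE 0.28, edgeR adjusted p = 0.75). Animal 9, whose pulled library is nearly identical to entry of animal 11, and animal 12 are among the 18. Without their libraries both genes were higher in 14 of 16 animals.

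Within the 6 animals, LTF fell from entry to both later stages. It went from a median of 6.03 CPM at entry to 1.79 CPM at pulled and 0.954 CPM at close-out, and 6 of 6 animals had their highest LTF at entry. The log2 fold change was -1.45 (SE 0.46, edgeR adjusted p = 0.00906) from entry to pulled, where 45.8% of all genes passed, and -1.96 (SE 0.48, edgeR adjusted p = 0.00162) from entry to close-out (46.1% of all genes). LCN2 gave 0.95 (SE 0.65, edgeR adjusted p = 0.229) from entry to pulled, with 4 of 6 animals higher, and 1.64 without animal 5 (edgeR adjusted p = 0.0348). In the same comparison MMP9 gave -0.88 (SE 0.66, edgeR adjusted p = 0.277), with 4 of 6 lower, and -1.72 without animal 2 (edgeR adjusted p = 0.0396). From entry to close-out LCN2 gave -1.32 (edgeR adjusted p = 0.0647) and MMP9 -1.20 (edgeR adjusted p = 0.0927), and both passed in DESeq2 (adjusted p of 0.0209 and 0.0386).

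The difference between the sets was tested in the same model as an interaction. For entry to pulled, where 68.4% of all genes passed this test, it was -1.56 for LTF (SE 0.53, edgeR adjusted p = 0.00945), -1.13 for LCN2 (SE 0.73, edgeR adjusted p = 0.167) and -1.88 for MMP9 (SE 0.75, edgeR adjusted p = 0.0242). The MMP9 call was lost without animal 3, 4, 5 or 6 (adjusted p of 0.0762, 0.064, 0.179 and 0.0555, edgeR), and its size fell to -1.05 without animal 5. For LCN2 the difference was -1.93 without animal 2 (edgeR adjusted p = 0.0155). For entry to close-out (64.6% of all genes) it was -2.37 for LTF (SE 0.55, edgeR adjusted p = 0.00029), -1.32 for LCN2 (SE 0.68, edgeR adjusted p = 0.0851) and -1.97 for MMP9 (SE 0.69, edgeR adjusted p = 0.0118). Without animal 5 the last was -1.32 (edgeR adjusted p = 0.0689). Within the 18, MMP9 was higher at close-out than at entry by 0.77 (SE 0.34, edgeR adjusted p = 0.0467, 14 of 18 animals, against 64.3% of all genes), and this passed in only 10 of the 24 fits that left out 1 animal. The call was also lost with library totals only (0.59, edgeR adjusted p = 0.12), in limma-voom (0.64, adjusted p = 0.0889) and with no low-count filter (0.77, edgeR adjusted p = 0.0607).

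The fall of LCN2 from pulled to close-out passed in both sets, and this comparison sets no entry level against another stage. It was -2.08 in the 18 (SE 0.34, 17 of 18 animals lower, edgeR adjusted p = 1.01e-05, with 28.1% of all genes passing) and -2.26 in the 6 (SE 0.65, 5 of 6 lower, edgeR adjusted p = 0.032, with 4.47% of all genes passing). The difference between the sets was -0.19 (SE 0.73, 95% interval -1.65 to 1.27, edgeR adjusted p = 1, against 0% of all genes). Within the 6 the call was lost without animal 2 (-1.44, edgeR adjusted p = 0.233), animal 7 (-1.75, edgeR adjusted p = 0.159) or animal 6 (-2.47, edgeR adjusted p = 0.0599). LTF and MMP9 did not pass in either set.

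**Figure D3:**
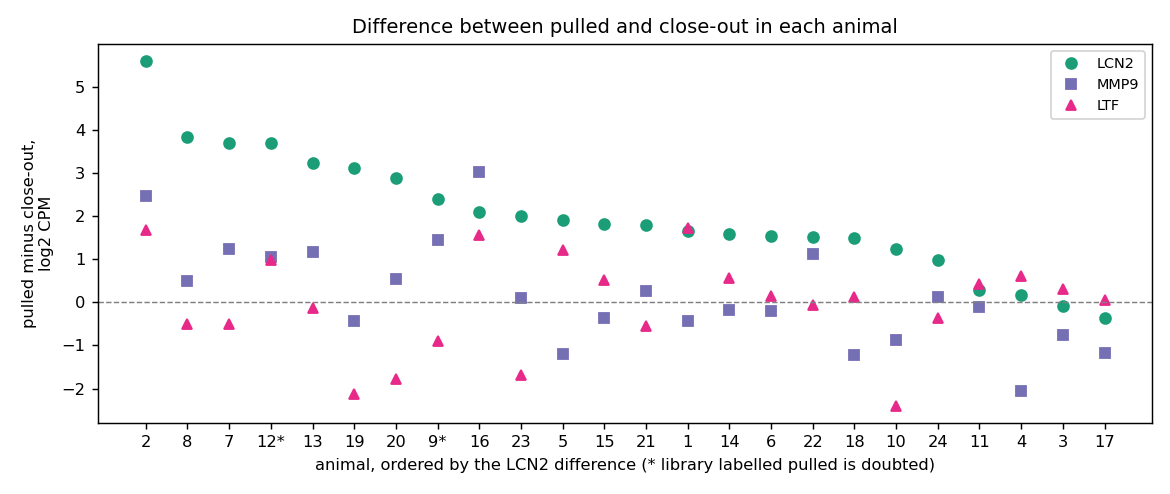
Pulled minus close-out in log2 CPM (y axis) for LCN2, MMP9 and LTF in each of the 24 animals, ordered by LCN2. Asterisks mark animals 9 and 12, whose pulled libraries are doubted. LCN2 lies above 0 in 22 of 24 animals, whereas MMP9 lies above 0 in 12 and LTF in 13.

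Animals differed more in these genes than in most. At pulled the SD of log2 CPM over 24 animals was 1.19 for LCN2, larger than for 96.6% of genes, 1.25 for MMP9 (97.3%) and 0.87 for LTF (86.6%), against a median of 0.49 over all genes. At close-out the SD was 0.57 for LCN2 (71.5% of genes smaller), 0.68 for MMP9 (81.6%) and 1.02 for LTF (96.5%), against a median of 0.42 over all genes. The mean absolute deviation of LCN2 from the stage median was 0.99 at pulled and 0.42 at close-out, smaller at close-out in 20 of 24 animals (adjusted p = 0.00036 over 9 tests, two-sided sign-flip permutation test). For MMP9 it was 1.00 at pulled and 0.53 at close-out, smaller in 17 of 24 (adjusted p = 0.0477, permutation test), and without animals 9 and 12 the adjusted p was 0.0567. The LTF spread did not differ past the threshold between any stages. The share of all genes that would pass this test of spread was not computed. The low LTF counts add counting error to its SD, and that share was not tested.

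Over 12 relations between 2 genes within a stage or set, 3 passed. The share that passes over all pairs of genes in the table was not computed. The values therefore do not show a relation particular to these genes. LCN2 and MMP9 were related at pulled (Pearson r = 0.65, adjusted p = 0.00292, and Spearman rho = 0.678, adjusted p = 0.00396, permutation tests, n = 24). Without animals 2 and 8, the farthest from the median, r was 0.577, and without animals 9 and 12 it was 0.664. At entry they were related within the 18 animals (r = 0.829, adjusted p = 0.0006; rho = 0.701, adjusted p = 0.0062; permutation tests, n = 18), with r = 0.653 without animals 11 and 16. Within the 6 at entry r was 0.925 (exact permutation test, p = 0.0167, adjusted p = 0.05) and rho 0.771 (exact permutation test, adjusted p = 0.308), and r was 0.665 without animals 4 and 5. At close-out LCN2 and MMP9 gave r = 0.113 (adjusted p = 0.783, permutation test) and rho = 0.173 (adjusted p = 0.686).

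LTF and MMP9 were related at close-out, where r was 0.633 (adjusted p = 0.00292) and rho 0.656 (adjusted p = 0.00396, permutation tests, n = 24), with r = 0.574 without animals 1 and 10. Over the alternatives with a prior count of 0.5 and with library totals only, the lowest r was 0.515. The highest adjusted p of these 2 alternatives was 0.0385 (permutation tests). At pulled LTF with MMP9 gave r = 0.208 (adjusted p = 0.564) and rho = 0.235 (adjusted p = 0.536, permutation tests). At entry r was 0.614 within the 6 (adjusted p = 0.467, exact permutation test) and 0.113 within the 18 (adjusted p = 0.783, permutation test). LTF was not related to LCN2 past the threshold at any stage, with r from -0.17 at pulled to 0.345 within the 6 at entry (adjusted p of 0.564 or more, permutation tests). Whether a relation differed between stages was not tested.

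**Figure D4:**
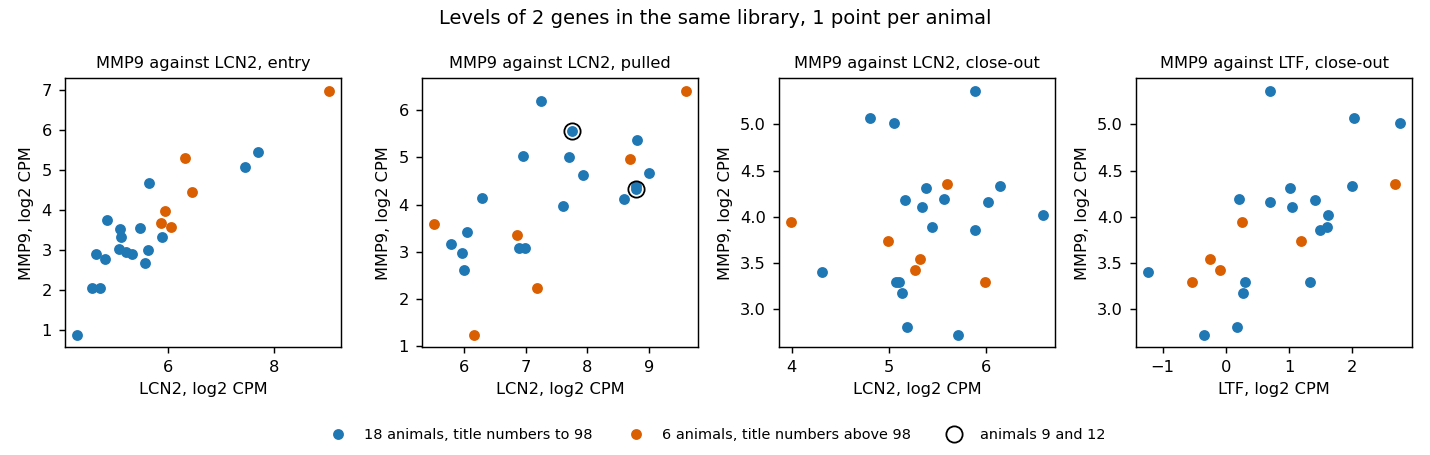
Log2 CPM of MMP9 (y axis) against LCN2 at entry, pulled and close-out and against LTF at close-out, with 1 point per animal coloured by set and the doubted pulled libraries of animals 9 and 12 circled. The points rise together for LCN2 at entry and pulled (r = 0.65 at pulled) and for LTF at close-out (r = 0.633), but not for LCN2 at close-out (r = 0.113).

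Whether an animal high at 1 stage was also high at another was asked of each gene by itself. Over 9 relations of a gene with itself between stages, none passed (permutation tests, adjusted p of 0.441 or more for r). The largest r was 0.378, for LTF between entry and pulled in the 18 animals, and 0.349 for MMP9 between pulled and close-out in 24 (adjusted p = 0.441 for both). For LCN2 the values of r were -0.04 between entry and pulled, 0.0723 between entry and close-out and -0.15 between pulled and close-out. The first of these rested on 2 animals, since between entry and pulled in the 18 LCN2 had a rho of 0.232 and, without animals 11 and 16, an r of 0.447. Likewise MMP9 between entry and pulled had an r of 0.257, and of 0.509 without animals 11 and 21. Between pulled and close-out, LTF went from 0.274 to -0.03 without animals 3 and 17, and LCN2 from -0.15 to 0.117 without animals 2 and 8. These values without 2 animals were not tested. Animal 3 had the highest LTF at entry and pulled and the second highest at close-out (15.1, 7.88 and 6.32 CPM).

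Likeness over the stages was measured as Pearson's r of log2 CPM over the 72 libraries after each animal's mean was subtracted. It is a description, since the libraries share animals and the entry sets. Among 12654 other genes, MMP9 stood at place 552 for LCN2 (r = 0.627) and LTF at place 4053 (r = 0.175). For MMP9, LCN2 stood at place 420 and LTF at place 1440 (r = 0.395). The gene most like MMP9 was ENSBTAG00000015329 (r = 0.909), and the gene most like LTF was ENSBTAG00000002635 (r = 0.723). The closest gene to LCN2 reached r = 0.923. For LTF, MMP9 stood at place 1769 and LCN2 at place 4435. Each of the 3 genes had closer genes elsewhere in the table than among the other 2. With 12654 genes searched this was near certain beforehand, so it is not a result about the 3 genes.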

How the data were processed

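The authors deposited 1 table of read counts per Ensembl gene, with 1 column for each of the 72 libraries and no normalization. The submitters' processing notes name TopHat2, HTSeq and UMD3.1 as aligner, counter and build; no version, annotation release or strand setting is given in these sources. Per the labels' protocols, PAXgene blood RNA above a set integrity was poly-A selected for TruSeq libraries. Columns without a sample numbered 0. Gene names come with the definition of the 3 genes; 0 of their identifiers matched the RefSeq table at hand (ARS-UCD2.0), so the marker lists were not computed, and no sequences or coordinates are given.

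Counts were analysed in R 4.3.3 with edgeR 4.0.16 (default expression filter, TMM, quasi-likelihood, animal as block, all 72 libraries). Libraries were paired by the animal numbers of the labels. The model with sets added the interaction of stage and set. Log2 CPM used a prior count of 2. Standard errors were derived from the fold change and its F statistic. Alternatives used DESeq2 1.42.0 and limma 3.58.1. The genes, sets, lists and doubted libraries were chosen with earlier results of these data known. The rule for named genes gave the 3 genes and, having no symbols, the gene most like LTF and the one most like MMP9. On simulated counts for pulled against entry over 12655 genes, edgeR recovered 55% of genes changed 1.5-fold and 88.8% of those changed 2-fold, with 12 false calls among 154. The changed genes were drawn at random, all other genes had no stage difference, and changed genes lost to the low-count filter were not counted. These shares therefore do not give the recovery for LTF and MMP9, which varied more between animals than most genes. P-values of stage comparisons measure the spread between animals in their changes, with each animal sampled once per stage. Those of set differences within a stage measure the spread between animals in level. Those of correlations come from permuting the animals.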

Additional observations from a re-analysis of the deposited data

Results flagged for a closer look

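Of the 9 stage differences compared between the 6 animals numbered above 98 in their titles and the remaining 18, 4 differed by the interaction test in edgeR, and all 4 involve entry. These are 2 of the 3 genes for each comparison with entry, where 68.4% (pulled) and 64.6% (close-out) of all genes passed this test, and 0 of 3 for close-out against pulled (0% of all genes). The change of LTF from entry to pulled was lower by -1.56 on the log2 scale in the 6 than in the 18, and its change from entry to close-out by -2.37. The change of MMP9 from entry to pulled was lower by -1.88, and that from entry to close-out by -1.97. The sets were chosen because their entry libraries stood apart, so these values describe them.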

How the results depend on the processing

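Over the 9 stage comparisons of the 3 genes, 313 of 315 values from 11 alternatives and from leaving out each animal kept their direction and their side of the threshold. Among the alternatives, an adjusted p of 0.01 and a test against a 1.5-fold change could not turn a comparison that had not passed. Fits that left out 1 animal share most of their libraries, so these values are not independent of each other. LCN2 gave 1.59 to 1.79 for pulled against entry and -2.36 to -1.97 for close-out against pulled over the 11 alternatives, and 1.65 to 1.96 and -2.24 to -1.97 when 1 animal was left out. The fit with no replicate block turned MMP9 for close-out against entry to -0.18 and changed no call of these 9. Leaving out 1 animal gave 0.42 to 0.75 for MMP9 from entry to pulled, past the threshold without animal 5.

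For the set differences, library totals only ended the calls of LTF from entry to pulled (-0.93) and of MMP9 from entry to pulled (-1.27) and to close-out (-1.34). This scaling moved the median of all genes in these set differences from 0.03 to 0.65 and from 0.04 to 0.68. LCN2 from entry to close-out passed in DESeq2 (-1.40) and limma-voom (-1.49). MMP9 from pulled to close-out was 0.16 in limma-voom. Leaving out 1 animal, chosen after seeing the data, gave -1.93 to -0.44 for LCN2 from entry to pulled, -0.74 to 0.62 from pulled to close-out and -1.72 to -0.75 from entry to close-out. For MMP9 it gave -2.70 to -1.05, -0.52 to 0.57 and -2.20 to -1.32.

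Other changes of sign were in values that passed no test. With library totals only, LTF from entry to pulled in the 18 was -0.21 and LCN2 from entry to close-out in the 18 was -0.16, while the median of all genes moved from -0.01 to -0.32 and to -0.18, so neither gene turned relative to that median. The latter was -0.11 to 0.17 without 1 animal. MMP9 from pulled to close-out in the 6 was -0.75 to 0.36 without 1 animal. At close-out, r with library totals was -0.0178 for LTF with LCN2 and -0.225 for LCN2 with MMP9, and r of LCN2 between entry and pulled was 0.0021 without animals 9 and 12. The causes of the other changes were not tested.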

Other observations

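At pulled, LCN2 was not spread evenly over the animals. The 17 lowest libraries ran from 45.8 to 245 CPM and the 7 highest from 388 to 773 CPM, with none between. This gap was picked after the values were seen. Within the 7, the step from 511 CPM in animal 8 to 773 CPM in animal 2 was wider in CPM, so the gap is not the only one. The 7 were animals 2, 7, 8, 12, 13, 20 and 23, of which animals 2 and 7 belong to the 6 with title numbers above 98 and animal 12 has a doubted label. Among these 7, MMP9 at pulled ran from 17.2 CPM in animal 23 to 85.1 CPM in animal 2, so the ranges of MMP9 in the 7 and in the other animals overlapped. Whether this gap separates 2 kinds of animals was not tested, and these 7 are not a group of the study.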
